A study of Mus musculus with 3 samples.

Results

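The Notch receptors Notch1, Notch2 and Notch3, the Hes and Hey repressors Hes1, Hes5, Hes6, Hey1, Hey2 and Heyl, and the feedback gene Nrarp were followed through the cells of 3 mouse brain rhabdoid tumours. These 10 genes were listed by symbol, and all 10 were found among the 31053 genes of each tumour. The tumours form a single group, labelled R26-SHH, and came from 3 different Rosa 26-CreERT2::Smarcb1flox/flox mice, in which tamoxifen switches on a Cre recombinase that removes Smarcb1, a core subunit of the SWI/SNF chromatin remodelling complex. The mice were on a mixed 129/SV×C57BL/6 background. The Rosa26 promoter drives the Cre in no single cell type, and the tumours were not sorted, so each library holds tumour cells together with vessels, glia and immune cells of the host. No untreated tissue, other genotype or other tumour subgroup was analysed here, and the ages of the mice were not given in the sources used here. Single-cell 3′ RNA libraries were read as counts of unique molecular identifiers (UMIs), each UMI standing for 1 captured transcript. All comparisons below are therefore between kinds of cells inside the same tumours, with 1 library per mouse and 3 mice.

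Notch receptors are membrane proteins that are cut when a Delta or Jagged ligand on a neighbouring cell binds them. The released intracellular domain joins the DNA-binding protein RBPJ in the nucleus and switches on Hes and Hey genes, whose products repress proneural genes. In the developing brain this keeps part of the progenitors from becoming neurons, and in vessels it acts in endothelial cells and in the mural cells (pericytes and smooth muscle) around them. Nrarp, another target, dampens the signal. Hes6 stands apart in its family, since it antagonises Hes1 and is found in cells that take on a neuronal fate.

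The genes lie on 7 chromosomes of the mouse genome (build GRCm38, the build of mm10), as annotated in GENCODE, and each is protein coding. Hes1 lies at chr16:30064384-30067796, Hes5 at chr4:154960923-154962371, Hes6 at chr1:91411483-91414038 and Notch3 at chr17:32120820-32166852. Hey2 lies at chr10:30832359-30842801, Heyl at chr4:123233556-123249875 and Hey1 at chr3:8663359-8667256. Nrarp (chr2:25180758-25183339) and Notch1 (chr2:26457903-26516663) share a chromosome, and Notch2 lies at chr3:98013527-98150361. RefSeq promoters (GRCm38.p6; 250 bases before to 50 bases after a gene's start) were found for 7 of the genes, namely Notch1, Notch2, Notch3, Hes5, Hes6, Hey2 and Nrarp. They were searched on both strands for GTGGGAA, the core of the sequence that RBPJ binds, whose reverse complement is TTCCCAC. Of 32851 mouse promoters of that length 2097 (6.38%) held at least 1 match and 84 (0.256%) held at least 2. Among the genes followed here, Hes5 and Hey2 held 2 matches each, 1 on either strand, and the promoters of the other 5 genes held none. These 2 promoters are shown because they alone among those searched hold the letters, and hold them in a pair. The capitals mark the matches, the first base of which lies 226 and 83 bases before the start of Hes5 and 207 and 4 bases before that of Hey2.
Hes5 promoter, chr4:154960673-154960972, plus strand: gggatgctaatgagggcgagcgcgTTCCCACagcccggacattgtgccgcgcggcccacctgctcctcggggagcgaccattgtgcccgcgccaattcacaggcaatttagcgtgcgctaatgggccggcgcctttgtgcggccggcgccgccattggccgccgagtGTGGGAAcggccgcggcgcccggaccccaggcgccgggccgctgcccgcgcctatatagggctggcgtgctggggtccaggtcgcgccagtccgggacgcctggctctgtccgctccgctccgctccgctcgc
Hey2 promoter, chr10:30842734-30843033, minus strand: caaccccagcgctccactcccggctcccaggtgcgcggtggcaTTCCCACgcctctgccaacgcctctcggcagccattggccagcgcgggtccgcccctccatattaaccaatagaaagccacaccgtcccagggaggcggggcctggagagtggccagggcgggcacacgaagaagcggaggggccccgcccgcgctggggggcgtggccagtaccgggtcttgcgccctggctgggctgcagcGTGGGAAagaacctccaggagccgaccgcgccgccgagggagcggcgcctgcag
A match is a stretch of letters and was not tested for binding here.

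The files of the 3 tumours hold 12467, 9485 and 6428 barcodes with 79529921, 40151353 and 67645602 UMIs, and 8851, 7111 and 4854 cells were kept (20816 in all). Of the barcode sequences, 86 occurred in more than 1 tumour. The median depth was 7133, 2369 and 8070 UMIs per cell. Cells were assigned by fixed marker lists that hold none of the Notch pathway genes. Endothelial (127, 108 and 131 cells), mural (90, 46 and 50), astro-glial (115, 150 and 17), oligodendrocyte (122, 225 and 4) and immune cells (995, 787 and 275) were gated first. The remaining cells with at least 2000 UMIs were scored for 4 tumour states, called here progenitor-like (Dlx and Gad genes; 692, 273 and 493 cells), neuronal-like (Dcx, Stmn2; 684, 596 and 114), stem-like (Sox9, Fabp7; 1114, 597 and 315) and mesenchymal-like (collagens, Twist1; 602, 420 and 80). A state is a range of a score rather than a cell type. Of 11227 cells scored 5980 were given a state, while 1297 lay within 0.05 of the minimum score and 2380 within 0.05 of the minimum margin to the next state. Gates read other genes of the same cells, and their limits were set after the score distributions had been seen. All markers of a list were higher in its class than in the other named classes together, except 1 of 10 in the progenitor-like and 2 of 12 in the mesenchymal-like class. The gates read these same markers, so this does not test the names. The gene that led the stem-like class by fold was Ttr, a transcript of the choroid plexus, and Gsx1, Pax3 and Myf5 led the progenitor-like class. Astro-glial and oligodendrocyte cells of tumour 3 were too few (a minimum of 20 was set), so these 2 classes rest on tumours 1 and 2. Smarcb1, the gene removed in these mice, was counted at 0.132 to 1.39 CPM (UMIs per 1000000 UMIs of a class) in progenitor-like, stem-like and mesenchymal-like cells and at 41.7 to 80.2 in endothelial and mural cells. How far its 3′ end lies from the removed part is not given in the sources used here. Neuronal-like cells held 5.94, 1.79 and 2.34 Smarcb1 CPM, while astro-glial cells gave 0 UMIs in tumour 1, which allows up to 4.01 CPM, and 11.2 CPM in tumour 2. The part of host and tumour cells in the values of both classes was not tested. Cells of tumour 3 were the deepest in the 4 states, with medians of 13287 to 21093 UMIs against 5472.5 to 10200.5 in the other tumours.

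Levels are given as CPM, the UMIs of a gene per 1000000 UMIs of all cells of a class in a tumour, so a level compares cells for 1 gene and not genes with each other. Notch1, the receptor best known from endothelial sprouting and neural progenitors, was counted at 251.8, 203 and 187.5 CPM in endothelial cells of tumours 1, 2 and 3 and at 197, 192 and 169.8 in mural cells. In astro-glial cells its level was 120.4 and 168. Stem-like cells held 31.0, 48.5 and 96.2, which overlapped immune cells (38.8 to 58.0), while mesenchymal-like cells held 11.7, 13.1 and 13.0. The ranges of endothelial and mural cells overlapped, and both lay above every tumour state in each of the 3 tumours.

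Notch2 was high in other cells. Its levels were 273, 306.5 and 231 in progenitor-like cells, 254, 336 and 217 in stem-like cells and 239, 359 and 156 in mesenchymal-like cells, and these 3 states overlapped. Neuronal-like cells held 68.2, 119 and 74.8, and endothelial cells 23.1, 22.05 and 21.8, the lowest of the 9 classes. Notch3, the receptor of pericytes and arterial smooth muscle, was counted at 429, 425 and 295 in mural cells. No other class came near these values. Astro-glial cells held 84.2 and 99.3, stem-like cells 51.5, 45.5 and 29.3, and endothelial cells gave 2, 3 and 2 UMIs in total.

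**Figure D1:**
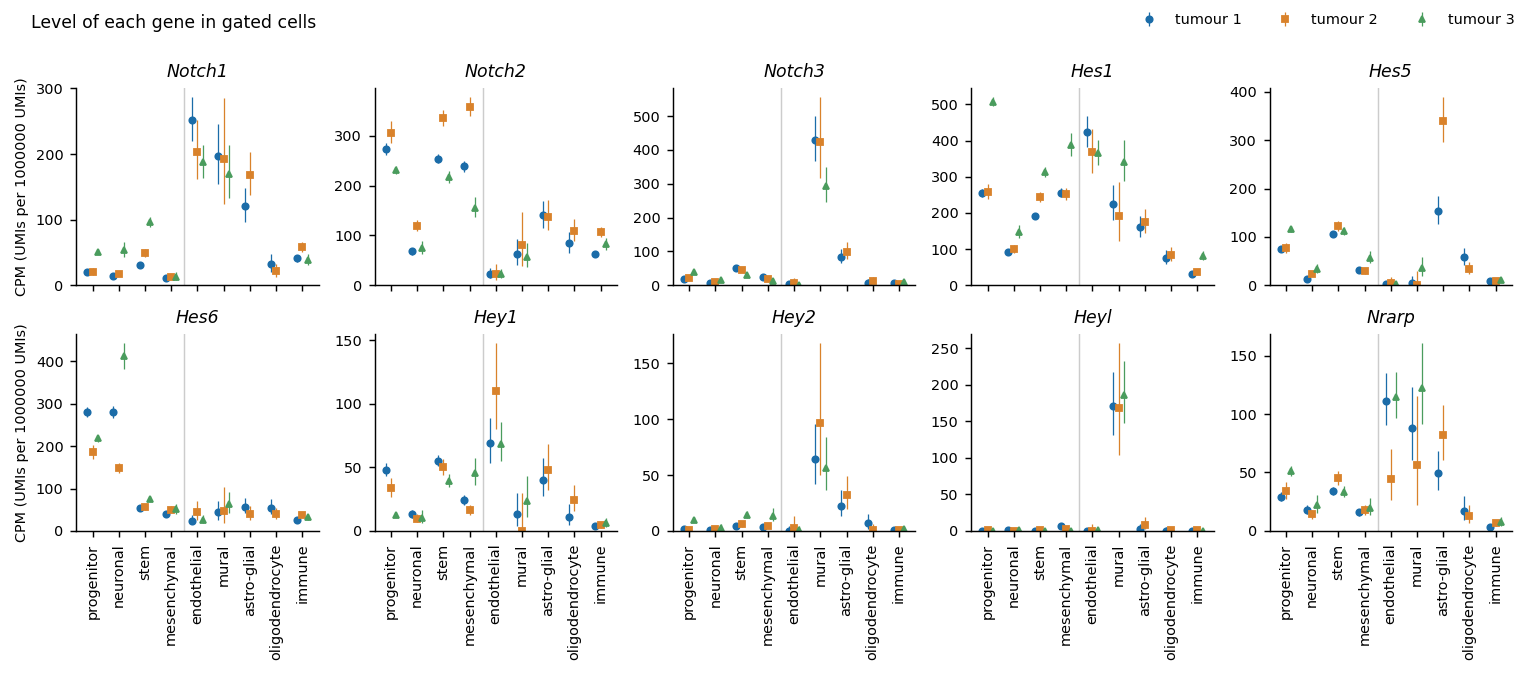
Level of each of the 10 genes (CPM, linear axis from 0) in 9 gated classes, with 1 point per tumour and bars for the exact Poisson 95% interval, which covers counting error only. The grey line parts the 4 tumour states from the other cells. Notch3, Hey2 and Heyl stand high in mural cells, Notch1 in endothelial, mural and astro-glial cells, and Notch2 in the progenitor-like, stem-like and mesenchymal-like states.

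Hes1, a repressor that many signals besides Notch can switch on, had its highest mean in endothelial cells (422, 368 and 365). Progenitor-like cells held 255, 259 and 507.5, and mesenchymal-like cells 256, 252 and 388, so in tumour 3 both states were above the endothelial level of that tumour. Neuronal-like cells held 91.6, 100.1 and 148, and immune cells 30.1, 36.6 and 81.6. Hes5, which in brain marks neural stem cells and astrocytes, was counted at 154 and 339.6 in astro-glial cells of tumours 1 and 2. Stem-like cells held 105.5, 122.5 and 112 and progenitor-like cells 75.7, 76.6 and 116. Endothelial cells gave 2, 2 and 4 Hes5 UMIs in total. Hes6 was high in other states, with 281, 148.5 and 412 in neuronal-like and 280.3, 186 and 219 in progenitor-like cells. Stem-like cells held 54.1, 56.8 and 76.3, below the lowest progenitor-like value.

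The Hey genes split between the vessel classes. Hey1 was counted at 69.3, 110.3 and 68.7 in endothelial cells. In mural cells it gave 5, 0 and 10 UMIs, where 0 UMIs in tumour 2 allow a level of up to 24.0 CPM. Stem-like cells held 55.1, 49.85 and 39.5. Hey2, known from arterial cells and heart, was counted at 64.7, 96.1 and 56.6 in mural cells and at 22.7 and 32.0 in astro-glial cells, while endothelial cells gave 0, 1 and 1 UMIs, the 0 allowing up to 3.30 CPM. Heyl, a Hey gene of smooth muscle and pericytes, was counted at 170.7, 168 and 186 in mural cells. Its next highest value in any class was 8.01, in astro-glial cells of tumour 2. Nrarp was counted at 111, 44.1 and 115 in endothelial and at 87.9, 56.1 and 123 in mural cells, which overlapped. In the 4 tumour states its levels ran from 14.1 to 51.0.

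Cells differ in depth, so shares of cells with at least 1 UMI were taken after each cell had been thinned to 2000 UMIs, leaving out shallower cells (146 of 366 endothelial, 57 of 186 mural and 95 of 265 astro-glial cells, and none of the 4 states). Notch3 was found in 58.9%, 45.8% and 43.8% of mural cells. In immune cells, which are not known for Notch3, the share was 0.855%, 1.57% and 0.649% at the same depth. Notch1 was found in 44.7%, 29.8% and 35.0% of endothelial cells and in 2.16%, 1.90% and 3.75% of mesenchymal-like cells. Hes1 was found in 49.5%, 38.6% and 50% of endothelial cells, in 12.4%, 12.4% and 20.2% of neuronal-like cells and in 5.47%, 5.92% and 12.3% of immune cells. Hes5 was found in 12.7%, 14.1% and 14.0% of stem-like cells, against 2.05%, 3.02% and 3.51% of neuronal-like and 1.37%, 2.44% and 1.299% of immune cells. The neuronal-like share was thus above the immune one in each tumour, and the part of free RNA in either share was not tested. Without thinning, the stem-like share was 26.8%, 23.6% and 33.0%, the neuronal-like share 6.87%, 6.88% and 15.8% and the immune share 3.82%, 3.68% and 7.27%. With thinning, the highest mean share lay in endothelial, mural or astro-glial cells for 8 of the 10 genes, and without it for 4. How often this holds over all genes was not counted, so these counts are not read as particular to the 10 genes.

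**Figure D2:**
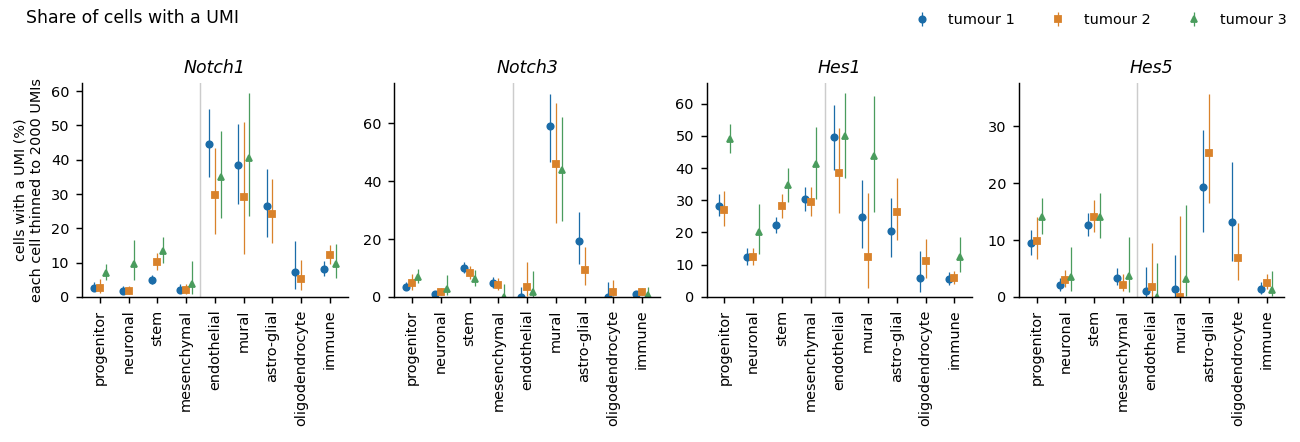
Percentage of cells with at least 1 UMI of Notch1, Notch3, Hes1 and Hes5 after thinning to 2000 UMIs per cell, by class, with 1 point per tumour and exact binomial 95% intervals. Notch3 reaches 43.8% to 58.9% of mural cells, and Hes5 12.7% to 14.1% of stem-like cells.

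The first comparison asked how neuronal-like cells differ from progenitor-like cells of the same tumour. Summed counts of each class and tumour were fitted with edgeR, with the tumour as a block, over 14464 genes. Of the 10 genes 6 fell in neuronal-like cells and 0 rose, where 6.60% of all genes tested fell and 9.45% rose. DESeq2 gave the same 2 counts, where 1052 of all 14464 genes fell and 1799 rose. So did edgeR at an unadjusted p under 0.05, for which all genes were not counted. The median difference of the 10 genes was -1.40 on the log2 scale, beside 0.0028 over all genes. The largest change was that of Hes5, which stood at 75.7, 76.6 and 116 CPM in progenitor-like cells and at 13.2, 24.1 and 33.9 in neuronal-like cells. The 2 ranges did not overlap, and the log2 difference was -2.10 (SE 0.29, adjusted p = 4.89e-05). Notch2 fell by 1.78 (SE 0.17, adjusted p = 1.1e-06) and Hes1 by 1.67 (SE 0.18, adjusted p = 4.3e-06), each lower in 3 of 3 tumours. Notch3 (-1.62 ± 0.37, adjusted p = 0.0044), Hey1 (-1.58 ± 0.42, adjusted p = 0.012) and Nrarp (-1.17 ± 0.28, adjusted p = 0.0064) also fell in every tumour. Cycling cells, as gated further on, made up 9.68%, 8.06% and 17.2% of progenitor-like and 1.17%, 1.85% and 2.63% of neuronal-like cells. Among non-cycling cells Nrarp stood at 23.3, 27.4 and 43.8 CPM in progenitor-like and at 18.1, 14.8 and 22.3 in neuronal-like cells, lower in each tumour, and the part of cycling in the call was not tested. Hes6 did not follow them, with a difference of 0.11 (SE 0.23, adjusted p = 0.81), higher in 2 of 3 tumours. Notch1 differed by -0.33 (adjusted p = 0.61) and Hey2, with 16 UMIs in neuronal-like cells, by -1.22 (adjusted p = 0.21). With a tumour left out the difference of Hey2 ran from -1.68 to -0.17. Heyl gave 11 UMIs in neuronal-like cells, 10 of them in 1 cell of tumour 1. The astro-glial markers stood at 313, 300 and 464 CPM in neuronal-like and at 213, 258 and 118 in progenitor-like cells. The oligodendrocyte markers stood at 133, 338 and 59.1 against 50.1, 209 and 25.6. Endothelial and mural markers were not higher in every tumour, and the part of these markers in the values was not tested. Without tumour 1, Nrarp (adjusted p = 0.073), Hey1 (0.29) and Notch3 (0.092) no longer passed, and without tumour 2, Hey1 (0.16) and Notch3 (0.094) did not. With clusters in place of gates, where tumour 3 has no progenitor-like cluster, Hes5 (0.16), Notch3 (0.38) and Nrarp (0.63) did not pass, and thinning the cells ended the call of Nrarp (0.081).

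Stem-like cells were next compared with progenitor-like cells. Hes6 was the gene that changed, from 280.3, 186 and 219 CPM in progenitor-like to 54.1, 56.8 and 76.3 in stem-like cells. The ranges did not overlap, and the difference was -1.85 (SE 0.24, adjusted p = 7.0e-05). So 1 of the 10 genes fell and 0 rose, where 1.36% of all genes fell and 4.63% rose. At an unadjusted p under 0.05 there were 3 higher and 2 lower, and DESeq2 called Hes6 alone. Notch1 was higher in stem-like cells in 3 of 3 tumours, at 31.0, 48.5 and 96.2 against 19.4, 20.04 and 50.9, with a difference of 0.96 (SE 0.34, adjusted p = 0.11). For Notch3 the difference was 0.75 (SE 0.32, adjusted p = 0.18) with 2 of 3 tumours higher. Hey2 differed by 1.04 (adjusted p = 0.23), Hey1 by 0.70 (adjusted p = 0.30) and Hes5 by 0.43 (adjusted p = 0.39). Hes1 was lower in stem-like cells of each tumour, by 0.36 (SE 0.17, adjusted p = 0.25). Without tumour 3, in which Notch3 stood at 39.6 in progenitor-like and 29.3 in stem-like cells, Notch3 (1.46, adjusted p = 0.000199), Notch1 (1.01, adjusted p = 0.0068) and Hey2 (1.84, adjusted p = 0.0497) passed. Hes6 did not pass without tumour 1 (adjusted p = 0.0843) or with clusters in place of gates (0.0976), where Hey2 did (0.0384), and Notch1 passed without the low-count filter (0.029).

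Between mesenchymal-like and stem-like cells, 4 of the 10 genes fell and 1 was called higher, where 1.51% of all genes fell and 3.35% rose. Notch1 went from 31.0, 48.5 and 96.2 CPM in stem-like to 11.7, 13.1 and 13.0 in mesenchymal-like cells, a difference of -2.06 (SE 0.38, adjusted p = 0.0018). Hes5 went from 105.5, 122.5 and 112 to 31.2, 29.1 and 56.9, a difference of -1.64 (SE 0.28, adjusted p = 0.000905). The ranges of both genes did not overlap. Notch3 fell by 1.21 (SE 0.33, adjusted p = 0.033) and Nrarp by 1.09 (SE 0.28, adjusted p = 0.022), each in every tumour. Hes1, at 256, 252 and 388 in mesenchymal-like cells, differed by 0.25 (SE 0.17, adjusted p = 0.60), and Notch2 by -0.14 (SE 0.16, adjusted p = 0.82). Hey1 (-0.84), Hey2 (-0.21) and Hes6 (-0.40) did not pass. The gene called higher was Heyl, from 49, 13 and 0 UMIs in mesenchymal-like cells, held by 17, 8 and 0 cells, against 2, 3 and 3 UMIs in stem-like cells. The 0 allows up to 1.86 CPM, both classes lie far under its mural level, and the call is not read as a rise. The pooled ratio was 13.8 (95% counting interval 6.59 to 33.4). The 12 mural markers together stood at 102, 68.3 and 165 CPM in mesenchymal-like cells and at 45.9, 26.2 and 36.3 in stem-like cells, against 20093 to 27160 in mural cells, and their part in the Heyl value was not tested. None of these 5 calls passed without tumour 1 (Notch1 0.054, Hes5 0.069, Notch3 0.28, Nrarp 0.32, Heyl 0.81 as adjusted p), without tumour 2 (0.11, 0.061, 0.45, 0.12 and 0.13) or with clusters in place of gates (0.23, 0.70, 0.43, 0.44 and 0.20). Without the tumour block Nrarp (adjusted p = 0.13), Heyl (0.056) and Notch3 (0.090) did not pass, Notch3 passed neither with DESeq2 (0.061) nor in thinned cells (0.10), and Hey1 passed as well without tumour 3 (-1.37, adjusted p = 0.000965) and in thinned cells (0.0152).

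**Figure D3:**
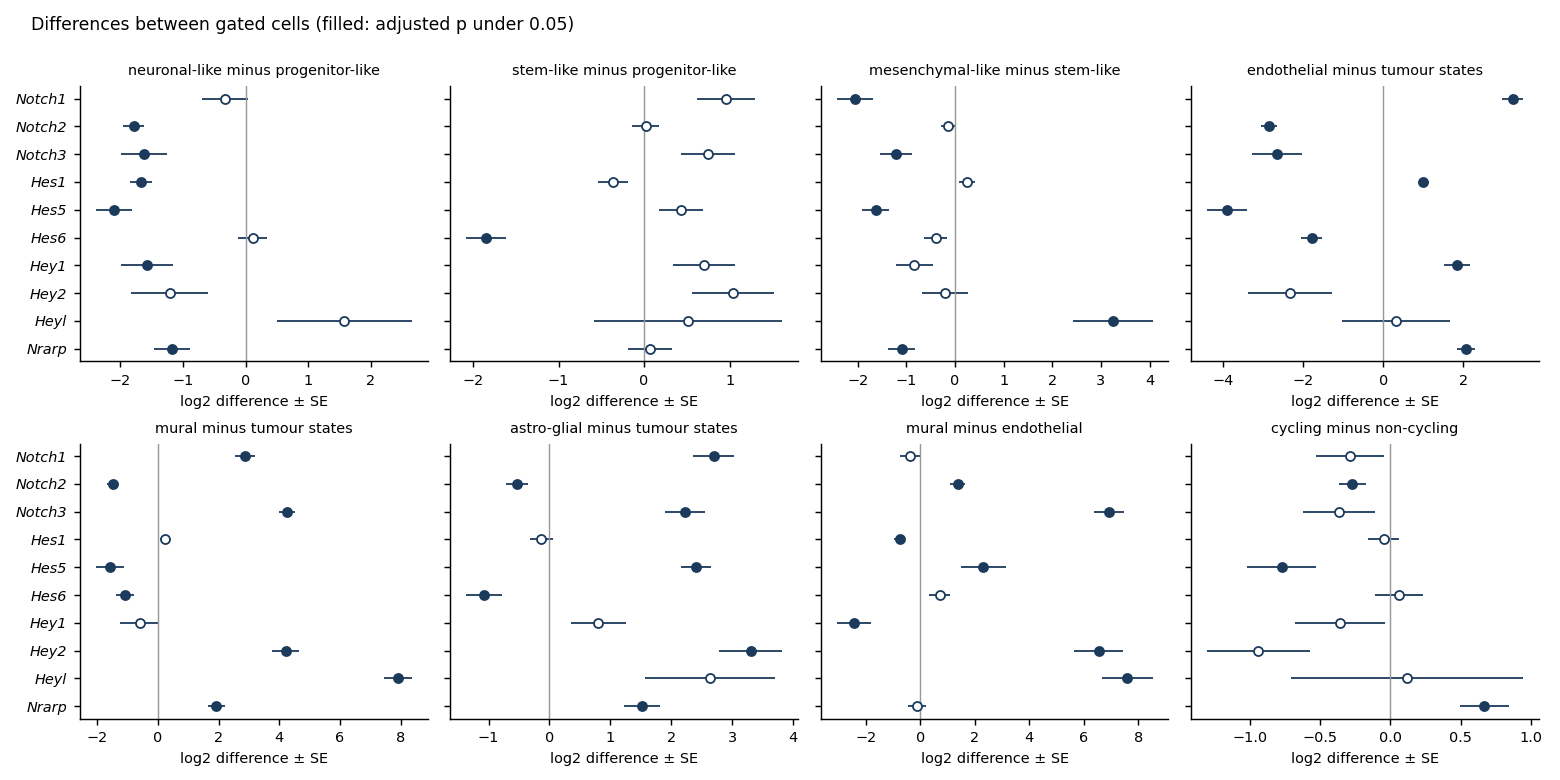
Log2 difference of each gene with its standard error in the 8 comparisons, from edgeR. Filled points have an adjusted p under 0.05 and open points do not, and the horizontal scales differ between panels. Differences of Heyl rest on few UMIs outside mural cells. In the panel of neuronal-like against progenitor-like cells 6 filled points lie left of 0, while Hes6 lies at 0.11.

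Endothelial cells were then set against the mean of the 4 tumour states. Here 4 genes were higher and 4 lower, where 25.0% of all genes were higher and 28.2% lower, so a call is common at the background too. Notch1 was higher by 3.24 (SE 0.26, adjusted p = 8.4e-10), Nrarp by 2.06 (SE 0.22, adjusted p = 7.4e-08) and Hey1 by 1.83 (SE 0.32, adjusted p = 6.0e-05), each in 3 of 3 tumours. Hes1 was higher by 0.997 (SE 0.14, adjusted p = 2.5e-06). On the other side stood Hes5, with 8 UMIs in 366 endothelial cells (-3.91 ± 0.50, adjusted p = 1.1e-06), and Notch2 (-2.85 ± 0.20, adjusted p = 6.1e-11). Hes6 (-1.79 ± 0.27, adjusted p = 8.5e-06) and Notch3 (-2.65 ± 0.63, adjusted p = 0.0013, on 7 endothelial UMIs) were lower as well. Endothelial Hes6 (24.2 to 44.1 CPM) overlapped mesenchymal-like cells (39.5 to 51.3), and endothelial Notch3 (1.67 to 7.35) overlapped neuronal-like cells (6.50 to 15.2). Hey2 and Heyl gave 2 UMIs each in endothelial cells, and the pooled level in the 4 states was 7.05 times the endothelial level for Hey2 (95% counting interval 1.94 to 58.4) and 1.57 times for Heyl (0.421 to 13.1). The median of all genes was itself shifted, to -0.20. The oligodendrocyte markers stood at 279, 838 and 248 CPM in endothelial cells, against 25.6 to 338 in the tumour states, and lay above every state of the same tumour. The mural markers stood at 191, 174 and 70.3 against 11.1 to 165, and in tumour 3 lay below mesenchymal-like cells. The part of both lists in the values was not tested. With clusters in place of gates Notch3 turned to 0.58 (adjusted p = 0.37), and in thinned cells its call was lost (adjusted p = 0.15). Hey2 passed without tumour 2 (adjusted p = 0.047), without the low-count filter (0.0361), under the stricter gate (0.0367) and with the other cell filter (0.0297), and Heyl passed with clusters (0.00213).

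Mural cells showed another set. Of the 10 genes 5 were higher and 3 lower than in the tumour states, where 17.3% of all genes were higher and 17.0% lower. Heyl is 1 of the 5, but the tumour states lie near its floor, so its count among the calls carries little. Its pooled mural level of 166 UMIs was 142 times that of the 4 states (86 UMIs; 95% counting interval 109 to 187). Notch3 was higher by 4.26 (SE 0.25, adjusted p = 1.0e-11) and Hey2 by 4.21 (SE 0.44, adjusted p = 1.1e-07). Notch1 (2.87 ± 0.33, adjusted p = 3.8e-07) and Nrarp (1.93 ± 0.28, adjusted p = 1.1e-05) were higher too, and all 5 genes were higher in 3 of 3 tumours. Markers of other cells were higher in mural cells as well. The 14 endothelial markers stood at 1071 to 1235 CPM against 9.29 to 45.8 in the tumour states, and the 6 ependymal markers at 336 to 575 against 10.5 to 52.7, and their part in these values was not tested. Notch2 was lower by 1.485 (SE 0.20, adjusted p = 3.1e-06), Hes5 by 1.59 (SE 0.46, adjusted p = 0.0095) and Hes6 by 1.08 (SE 0.30, adjusted p = 0.0065). These 3 genes were lower than the mean of the states and not than each state. Mural Hes6 (44.0 to 63.7 CPM) overlapped stem-like (54.1 to 76.3) and mesenchymal-like cells (39.5 to 51.3). Mural Hes5 (0 to 35.4) and Notch2 (56.6 to 80.1) overlapped neuronal-like cells (13.2 to 33.9 and 68.2 to 119). Hes1 differed by 0.24 (SE 0.16, adjusted p = 0.27) and Hey1 by -0.61 (SE 0.64, adjusted p = 0.50; -1.38 to -0.38 with a tumour left out). The median of all genes was -0.23, and over all genes 2499 were higher and 2460 lower with edgeR against 2944 and 1760 with DESeq2, while the members' calls were the same in both. Mural Hes5 rests on 2, 0 and 15 UMIs, and without tumour 3 its difference was -3.42 (adjusted p = 0.0051) and that of Hey2 5.03. Without tumour 1 the calls of Hes5 (adjusted p = 0.062) and Hes6 (0.092) were lost, and thinning ended that of Hes6 (0.15).

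Set directly against each other, mural and endothelial cells differed in 7 of the 10 genes, 5 higher and 2 lower in mural cells, where 9.51% of all genes were higher and 11.1% lower. Heyl is 1 of the 5, and since it lies near its floor outside mural cells, its count among the calls carries little. Notch3 was higher in mural cells by 6.91 (SE 0.55, adjusted p = 8.3e-09), against 7 UMIs in endothelial cells, and the difference was 3.59 with clusters in place of gates (adjusted p = 0.0006), 5.84 in thinned cells and 5.85 with doublets kept. Notch2 was higher by 1.37 (SE 0.27, adjusted p = 0.000832). Heyl and Hey2 were called too, and since endothelial cells held 2 UMIs of each, the pooled mural level is better given as 223 times (95% counting interval 60.7 to 1855) and 81.9 times (21.7 to 691) the endothelial level. Hey1 was lower in mural cells by 2.44 (SE 0.64, adjusted p = 0.0080) and Hes1 by 0.76 (SE 0.20, adjusted p = 0.0076). Hes5 was called higher (2.31 ± 0.82, adjusted p = 0.049) on 2, 0 and 15 mural UMIs, and without tumour 3 the difference was 0.29 (adjusted p = 0.999). Notch1 (-0.36 ± 0.39, adjusted p = 0.59), Nrarp (-0.13 ± 0.32, adjusted p = 0.86) and Hes6 (0.70 ± 0.39, adjusted p = 0.24, higher in mural cells of 3 of 3 tumours) did not pass. The 14 endothelial markers stood at 1071 to 1235 CPM in mural cells, against 13329 to 13526 in endothelial cells, and 12 mural markers at 70.3 to 191 in endothelial cells, and their part in the values was not tested. Hey1 differed by -3.22 without tumour 3 and did not pass without tumour 1 (adjusted p = 0.075) or tumour 2 (0.080), nor did Hes1 (0.14 and 0.13), and Hes5 did not without tumour 1 (0.061). Without the tumour block Hes1 (0.18) and Hes5 (0.056) were lost, and so they were with thinned cells (0.17 and 0.86) and with clusters in place of gates (0.20 and 0.71, with Notch2 at 0.15), while Hes5 was also lost under the stricter gate (0.0505) and with the other cell filter (0.10).

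Astro-glial cells could be compared in tumours 1 and 2. Relative to the tumour states 5 of the 10 genes were higher and 2 lower, where 11.5% of all genes were higher and 7.63% lower (1662 and 1104 genes, against 2077 and 851 with DESeq2). Hes5, at 154 and 339.6 CPM, was higher by 2.41 (SE 0.25, adjusted p = 4.3e-07). Hey2 was higher by 3.31 (SE 0.52, adjusted p = 9.1e-05), Notch1 by 2.70 (SE 0.34, adjusted p = 6.1e-06), Notch3 by 2.23 (SE 0.33, adjusted p = 4.7e-05) and Nrarp by 1.53 (SE 0.30, adjusted p = 0.000855), each in both tumours. Hes6 (-1.07 ± 0.30, adjusted p = 0.013) and Notch2 (-0.53 ± 0.18, adjusted p = 0.039) were lower than the mean of the states, though not than each state. Astro-glial Hes6 (40.0 to 57.5 CPM) overlapped stem-like (54.1 to 76.3) and mesenchymal-like cells (39.5 to 51.3). Astro-glial Notch2 (137.8 to 140.4) lay above neuronal-like cells (68.2 to 119). Hes1 differed by -0.13 (SE 0.18, adjusted p = 0.69), and Hey1 by 0.80 (SE 0.45, adjusted p = 0.25). Heyl, with 7 UMIs, differed by 2.65 (SE 1.07, adjusted p = 0.092) and passed with DESeq2 (0.0294) and with the other cell filter (0.0107). The 12 mural markers stood at 42.8 and 41.6 CPM in astro-glial cells, within the range of stem-like and mesenchymal-like cells. The 12 stem-like markers stood at 23883 and 22623 CPM there, against 12458 and 12743 in stem-like cells of the same tumours, and so were higher along with Hes5 and Notch1. The 12 mesenchymal-like markers stood at 2478 and 2521 against 930.5 and 1186 in the same stem-like cells, and the 6 ependymal markers at 142 and 120.1 against 10.5 to 52.7 in the tumour states. The part of these markers in the values was not tested. Without tumour 2, which leaves 1 astro-glial sum that is assumed to vary like the other classes, Nrarp (adjusted p = 0.058), Notch3 (0.058), Hes6 (0.080) and Notch2 (0.58) did not pass, and without tumour 1 Hes6 (0.16) and Notch2 (0.15) did not. With clusters in place of gates, where tumour 3 adds 2 astro-glial clusters of 98 and 373 cells against the 17 gated cells left out, Hey2 alone of these genes passed (Notch1 0.080, Hes5 0.38, Notch3 0.32, Nrarp 0.30, Hes6 0.33 and Notch2 0.67), thinned cells lost Hes6 (0.15) and Notch2 (0.073), and Notch2 was also lost with RLE factors (0.089), DESeq2 (0.10), no tumour block (0.28) and doublets kept (0.063).

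Within the tumour states, cells with a score of at least 0.5 over 16 cell-cycle genes (cycling) were compared with cells of the same state and tumour that scored under 0 (non-cycling), and the cells in between were left out. There were 8 such pairs of sums in progenitor-like, stem-like and mesenchymal-like cells, which share the 3 animals and are not 8 replicates. Nrarp rose with cycling, by 0.67 (SE 0.17, adjusted p = 0.0054), and was higher in 7 of 8 pairs, with a mean of 47.1 CPM in cycling and 28.6 in non-cycling cells. Hes5 fell by 0.77 (SE 0.25, adjusted p = 0.019), lower in 6 of 8 pairs, the 2 mesenchymal-like pairs being the exceptions. In stem-like cells it stood at 25.1, 29.6 and 92.5 CPM when cycling and at 119, 142 and 117 when not. Notch2 fell by 0.27 (SE 0.09, adjusted p = 0.030), lower in 7 of 8 pairs, with a mean of 243 in cycling and 284 in non-cycling cells. So 1 gene rose and 2 fell, where 15.9% of 13046 genes rose and 21.1% fell. Hes1 differed by -0.05 (SE 0.11, adjusted p = 0.76), Hes6 by 0.06 (SE 0.17, adjusted p = 0.81), Notch1 by -0.29 (adjusted p = 0.37), Notch3 by -0.37 (adjusted p = 0.28) and Hey2 by -0.94 (adjusted p = 0.051), which passed under the stricter gate (0.0318), with the other cell filter (0.0246) and with doublets kept (0.0343). The median of all genes was -0.13. Hes5 (adjusted p = 0.165) and Notch2 (0.49) did not pass without tumour 1, Notch2 did not without tumour 3 (0.066), and Nrarp did not without tumour 2 (0.052). No gene passed with clusters in place of gates (Nrarp 0.91, Hes5 0.22, Notch2 0.69). That setting left out the clusters named cycling, which belong to no state (633 cells in tumour 1, 264 and 209 in tumour 2, 299 and 114 in tumour 3). It compared only cycling cells found in clusters named as a state, so it cannot decide on these calls. The tumour block carried the calls of Hes5 (0.076 without it) and Notch2 (0.47). Thinning ended those of Nrarp (0.079) and Notch2 (0.087), and Notch2 was lost with the other cell filter (0.068) or doublets kept (0.12).

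**Figure D4:**
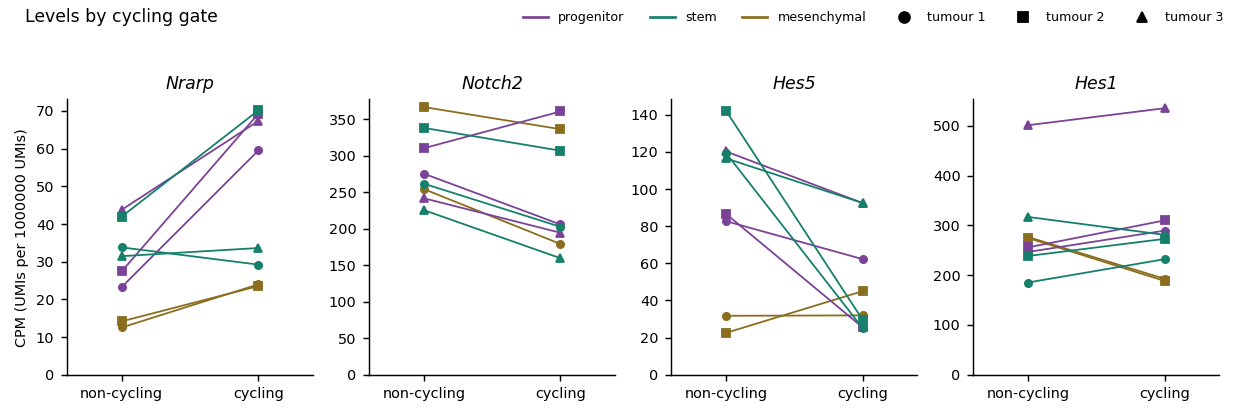
Levels of Nrarp, Notch2, Hes5 and Hes1 (CPM, axis from 0) in non-cycling and cycling cells of the same state and tumour, joined by a line. Colours give the state and symbols the tumour. The Nrarp lines rise in 7 of 8 pairs, and the Notch2 lines fall in 7 of 8.

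The other pathway genes were taken from 5 lists. Among 10 ligands and fringe genes, which are the genes of the sending cell and of receptor sugar modification, 9 were tested. In stem-like against progenitor-like cells 3 fell and 0 rose, where 1.36% of all genes fell and 4.63% rose (2 rose and 4 fell at an unadjusted p under 0.05 in edgeR; median -0.60, all genes 0.018), namely Dll3 (-2.49 ± 0.27, adjusted p = 1.5e-05), Mfng (-2.37 ± 0.59, adjusted p = 0.019) and Dll1 (-1.93 ± 0.31, adjusted p = 0.000666). Dll1, the ligand of neural progenitors, stood at 244, 230.3 and 169 CPM in progenitor-like and at 53.7, 79.6 and 32.2 in stem-like cells. In neuronal-like cells Jag2 (1.71 ± 0.54, adjusted p = 0.034) and Mfng (1.57 ± 0.48, adjusted p = 0.031) rose, and Dll1 (-1.12 ± 0.31, adjusted p = 0.016) and Lfng (-1.20 ± 0.27, adjusted p = 0.0036) fell, each in 3 of 3 tumours, where 9.45% of all genes rose and 6.60% fell. Dll4 was called higher there too (2.05 ± 0.66, adjusted p = 0.037), at 3.72, 2.56 and 40.3 CPM against 4.10, 0 and 1.81 in progenitor-like cells. Tumour 3 stood apart, and tumour 1 was lower in neuronal-like cells. In endothelial cells 4 of the 9 rose and 3 fell, where 25.0% of all genes rose and 28.2% fell, so the number that fell is near the background. Dll4, the ligand of endothelial tip and arterial cells, stood at 123, 90.7 and 215 there and was higher by 5.94 (SE 0.39, adjusted p = 3.5e-11) than in the tumour states. Jag2 (6.02 ± 0.32, adjusted p = 8.7e-13) was higher as well. In mural cells Dll4 and Jag2 gave 1 UMI each and Mfng 2 UMIs, so the endothelial level was 151 times (95% counting interval 26.99 to 5987), 101 times (18.0 to 4016) and 40.2 times (11.0 to 334) the mural level. Jag1 was at 184, 393 and 125 in mural and at 117, 113 and 87.1 in endothelial cells.

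**Figure D5:**
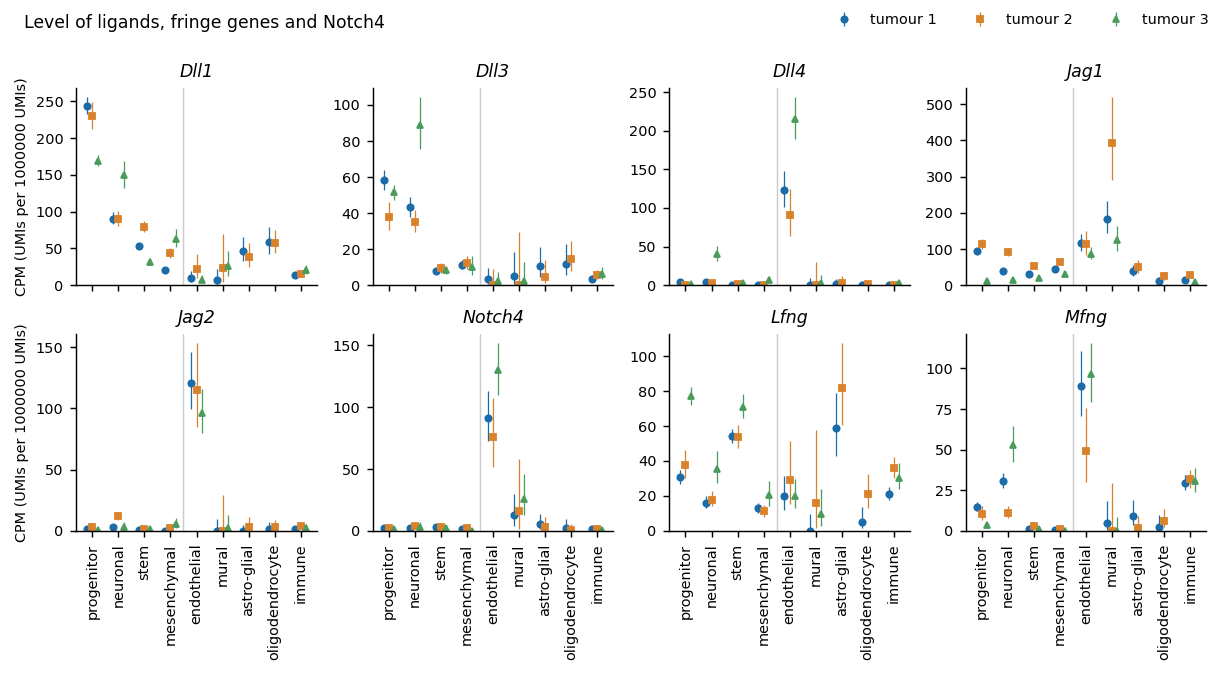
Level of the ligands Dll1, Dll3, Dll4, Jag1 and Jag2, the receptor Notch4 and the fringe genes Lfng and Mfng (CPM, axis from 0) by class, with 1 point per tumour and exact Poisson 95% intervals. Dll1 and Dll3 stand high in progenitor-like and neuronal-like cells, while Dll4, Jag2 and Notch4 stand high in endothelial cells.

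Neurod1, a proneural gene, rose in neuronal-like cells (4.51 ± 0.62, adjusted p = 4.8e-05), and so did Neurod4, whose pooled level was 104 times that of progenitor-like cells, where it gave 2 UMIs (95% counting interval 28.1 to 872), where 9.45% of all genes rose. Insm1 (0.88, adjusted p = 0.091) and Neurog2 (1.18, adjusted p = 0.16) did not pass. In stem-like cells Insm1 fell (-2.75 ± 0.38, adjusted p = 0.000159). Mesenchymal-like cells held less Lfng (-2.06 ± 0.27, adjusted p = 9.8e-05) and more Dlk1, a non-canonical ligand (2.93 ± 0.82, adjusted p = 0.041), than stem-like cells. The 11 genes of receptor processing, which cut and modify the receptor, gave 0 calls in edgeR in the 3 comparisons between states, where 2 genes had an unadjusted p under 0.05, both lower in neuronal-like cells. Over all genes 9.45% rose and 6.60% fell in neuronal-like, 4.63% and 1.36% in stem-like and 3.35% and 1.51% in mesenchymal-like cells, so 0 of 11 is near the background in the last 2. In endothelial cells 6 of the 11 rose and 0 fell (7 and 0 at an unadjusted p under 0.05), where 25.0% of all genes rose and 28.2% fell. Adam10, a protease that cuts the receptor, was higher there by 2.22 (SE 0.13, adjusted p = 2.6e-12). Of the 17 genes of the transcription complex 3 fell in neuronal-like cells, Tle3, Hdac1 and Maml2, where 6.60% of all genes fell. In stem-like cells, where 1.36% of all genes fell, 1 did, which was Rbpj itself (-0.585 ± 0.17, adjusted p = 0.042). At an unadjusted p under 0.05 in edgeR, 4 of the 17 were lower in neuronal-like and 6 in stem-like cells, and 0 were higher in either. All genes were not counted at that threshold.

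Dll1, Lfng, Dll4, Jag2, Mfng, Dtx1, Insm1 and Neurog2 in neuronal-like cells, Jag1, Adam10, Rbpj, Tle3, Hdac1 and Maml2 fall outside the naming rule and were chosen after their values had been seen. Among the 14 modulators, a list that includes the further receptor Notch4, Dtx1 rose in neuronal-like cells (1.83 ± 0.32, adjusted p = 0.00058) and Hes3 was called lower (-1.95 ± 0.63, adjusted p = 0.041). Hes3 gave 15, 1 and 461 UMIs in progenitor-like cells, or 1.98, 0.393 and 38.0 CPM, against 3, 0 and 18 UMIs in neuronal-like cells, so tumour 3 stood apart. Notch4 was at 91.3, 76.0 and 129.8 in endothelial and 12.9, 16.0 and 25.9 in mural cells, and the latter was above the tumour states by 3.16 (SE 0.51, adjusted p = 4.1e-05). The endothelial markers were higher along with it, as given above for mural cells, and their part in the value was not tested. Dtx1 gave 0 UMIs in endothelial cells, so its level was at least 6.17-fold lower than in the pooled states, taking 3 UMIs over the group as the floor. Tle2 gave 0 UMIs in mural cells, at least 2.998-fold lower than in the pooled states. Hes3 gave 0 there as well, and since 461 of its 613 UMIs in the states came from progenitor-like cells of tumour 3, no fold is given. In astro-glial cells Dtx1 (1.87 ± 0.32, adjusted p = 0.000313) and Neurl1a (2.66 ± 0.83, adjusted p = 0.031) were higher and Insm1 lower (-2.49 ± 0.68, adjusted p = 0.012). With cycling, Tle2 (-1.07 ± 0.26, adjusted p = 0.0030), Psen2 (-1.07 ± 0.17, adjusted p = 7.8e-05) and Mib2 (-1.03 ± 0.18, adjusted p = 0.000195) fell, each in 8 of 8 pairs.

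Last, genes were ranked by how closely their levels followed each of the 10 genes over the 25 class sums (Pearson correlation of log2 of the level plus 1). The sums share libraries and classes, and the values are descriptions. Hes1 was followed most closely by Yap1 (r = 0.95), Ctnna1 (0.91) and Cnbp (0.90), and Heyl by Pdgfrb, itself a mural marker of the gate (0.96), Nnmt (0.96) and Lama2 (0.95). For Hey2 the closest gene was Notch3 (0.89), before Ikbip (0.88) and Sdc2 (0.88), and for Notch3 the closest were Vstm4 (0.92), Sdc2 (0.90) and Ndst3 (0.89). Hes5 was followed by 9430041J12Rik (0.93), Ednrb, a stem-like marker of the gate (0.91), and Ring1 (0.91), and Hes6 by Elavl4, a neuronal-like marker (0.92), Ing4 (0.90) and Cecr2 (0.89). Notch2 was followed by Sfxn2 (0.91), Rragd (0.89) and Psat1 (0.89), and Hey1 by Gsta4 (0.89), Prom1 (0.88) and Nxn (0.88). Nrarp was followed by Lrrc58 (0.89), Sparcl1, a stem-like marker of the gate (0.89), and Fermt2 (0.89). Notch1 had the least close followers, 4930523C07Rik, Ddx58 and Mfge8 (0.84 each).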

How the data were processed

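Single-cell 3′ RNA libraries of 3 tumours from 3 mice were analysed. The counts are raw UMI counts per gene and barcode that the authors made with Cell Ranger 3.1.0 on mm10 and deposited as 1 matrix per tumour, which holds barcodes of at least 500 UMIs. Nothing was normalized before deposit. How reads of overlapping genes were shared is as that tool does it.

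From these counts, cells under the 5th percentile of genes or over a mitochondrial limit of at most 20% were removed. Scrublet in scanpy 1.11.5 called 0, 1 and 1 doublets by its own threshold and so had not worked, and the 692, 449 and 152 cells with the highest scores among those kept were removed at a rate of 0.8% per 1000 cells. Cells were gated on marker lists that hold no pathway gene: a class other than a tumour state needs at least 4 markers, and a state a score of at least 0.2 with a margin of 0.1. Clusters are an alternative only. UMIs were summed per class and tumour (at least 20 cells), giving 25 sums, and tested in R 4.3.3 with edgeR 4.0.16 (quasi-likelihood test, TMM, filterByExpr, class and tumour as terms, Benjamini-Hochberg over 14464 genes). The tumour is a block because the classes share the 3 animals, and n is 3 tumours (2 for astro-glial cells). A difference is on the log2 scale with its SE, and the tumour states are the mean of 4 state terms. The fit was tested on simulated data. All 10 genes passed the filter. Intervals are exact and cover counting error only, and a count of 0 allows up to 3 UMIs.

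Alternatives were RLE size factors, DESeq2 1.42.0, no filter, no tumour block, each tumour left out, a stricter gate, clusters, thinning to 2000 UMIs, another cell filter (only cells failing both the gene and the mitochondrial limit removed), no doublet removal and, chosen after seeing the data, leaving out cells with over 5000 Ttr CPM (UMIs per 1000000 UMIs). Beyond the 10 genes, up to 3 pathway genes per comparison are named, those with the largest change past the threshold and the same sign in every tumour, and the 3 genes most like each member. The members and lists were chosen with earlier results of these data known. Cells with no class were not compared. Some results on other pathway genes are not reported here.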

Additional observations from a re-analysis of the deposited data

How the results depend on the processing

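Of 80 tests of the 10 genes, 45 passed, 44 of these kept their direction under all 13 alternatives (Notch3 in endothelial cells turned to 0.58 with clusters) and 19 also kept their call under all 13. The cause of the other changes was not tested. Counts of genes called that changed by over 1.5 times were 3 in neuronal-like, 0 in mesenchymal-like, 1 in astro-glial, 4 in mural against endothelial and 0 in cycling cells with clusters, 2 in stem-like cells without the filter, and 1 in cycling cells when thinned. With clusters, those named cycling were left out of the cycling comparison. Without the tumour block such counts were 2 in mesenchymal-like and 1 in cycling cells, and 8 of the 80 tests lost their call while none gained one. Leaving out each tumour in turn gave 3 to 6 calls in neuronal-like, 0 to 4 in stem-like, 0 to 6 in mesenchymal-like, 8 to 9 in endothelial, 6 to 8 in mural and 3 to 7 in astro-glial cells, 4 to 6 in mural against endothelial cells and 1 to 2 with cycling. Without thinning, 4 of the 10 genes had their highest share of cells in endothelial, mural or astro-glial cells, a count not made over all genes.

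Directions that turned all belong to differences that did not pass, apart from Notch3 above. With clusters they were Notch1 (0.91), Hey2 (0.12) and Heyl (-0.49) in neuronal-like, Notch2 (-0.32) and Hes5 (-0.16) in stem-like, Hey2 (1.05) in endothelial and Hey1 (0.091) in mural cells, Nrarp (0.10) in mural against endothelial cells, and Hes6 (-0.037) and Heyl (-1.87) with cycling. With thinning they were Heyl in neuronal-like (-1.47) and Hes1 in astro-glial cells (0.17). The fitted value of Heyl in thinned endothelial cells (-2.16) carries no direction, since 0 of these cells held a Heyl UMI. With the other cell filter they were Heyl in neuronal-like (-0.61), Notch2 in stem-like (-0.0069) and Hes1 in cycling cells (0.025), and with the stricter gate Notch2 (-0.024) and Nrarp (-0.013) in stem-like cells. With a tumour left out the ranges that crossed 0 were -0.26 to 0.29 for Hes6 and -0.60 to 2.69 for Heyl in neuronal-like, -0.061 to 0.055 for Notch2, -0.30 to 0.99 for Heyl and -0.17 to 0.38 for Nrarp in stem-like, -0.29 to 0.0050 for Notch2 in mesenchymal-like, and -4.65 to 1.60 for Heyl in endothelial cells, where the lower value carries no direction, since endothelial cells of tumours 1 and 2 held 0 Heyl UMIs. They were -0.25 to 0.030 for Nrarp in mural against endothelial cells, and -0.064 to 0.00053 for Hes1 and -0.028 to 0.22 for Hes6 with cycling.

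Over all genes, 670 were higher and 196 lower in stem-like cells, against 1034 and 510 with DESeq2, 158 and 20 without the tumour block and 30 and 0 with clusters. RLE factors moved the median of all genes in mural cells from -0.23 to -0.13. Hey2 and Heyl in endothelial cells rest on 2 UMIs each, which limits what their differences can show.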
